A study of Homo sapiens with 4 samples.

Results

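CIITA, the class II transactivator, and 9 genes for the proteins it works with at class II promoters were described here in KM-H2, an established Hodgkin lymphoma cell line grown from a pleural effusion. The 9 are RFX5, RFXAP and RFXANK, which encode the RFX complex, NFYA, NFYB and NFYC, which encode NF-Y, and CREB1, CREBBP and KAT2B. Every probe set annotated to exactly 1 of these 10 symbols was taken and described on its own, which gave 36 of the 54613 probe sets measured, and 10 of the 19775 genes they name. The rule itself uses no measured value, although the genes were chosen with earlier results of these data known.

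RNA was measured on 4 Affymetrix arrays. The 2 control arrays were of cells that had received a non-silencing vector, and the 2 knockdown arrays of cells with a lentiviral vector against the fusion transcript CIITA-BX648577. In that transcript, CIITA supplies the 5′ part and BX648577 the 3′ part. All 4 arrays therefore came from transduced KM-H2 cells, and the comparison asked what followed interference with the fusion transcript. The model has limits that the labels show: there was 1 cell line and 1 hairpin, the hairpin was aimed at exon 2 of BX648577 and not at CIITA, and neither the time after transduction nor separate cultures behind the replicates are stated. The p-values therefore measure only the spread between these samples, which may be technical.

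CIITA binds no DNA by itself. It is a coactivator of the NLR family that docks on an enhanceosome, a group of factors assembled on the class II promoters, where the RFX complex sits on the X box, CREB1 on the neighbouring X2 box and NF-Y on the Y box. Docked CIITA recruits acetyltransferases such as CREBBP and KAT2B and the transcription machinery, and its presence is what limits class II expression in most cells. B cells, from which Hodgkin tumour cells derive, normally make CIITA and class II molecules constitutively.

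The hairpin is shown because it defines what was interfered with. Per the labels it was aimed at BX648577, and no part of it is stated to match the CIITA part. Its arms were taken as the 23-base stretch whose reverse complement follows in the hairpin. They were not compared with BX648577, so how much of each arm is target sequence is not given. The arms are separated by 15 bases in a hairpin of 97 bases. Both are given in the 5′ to 3′ direction, with no letters marked.
5′ arm: gacagccacctcactatcaaata
3′ arm: tatttgatagtgaggtggctgtc

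The boxes on which the complex assembles are shown for 5 class II genes whose RNA was measured on these arrays. Capitals mark a 9-base X box core, AGNNACNGA, and a Y box, ATTGG, which is the reverse complement of the NF-Y motif CCAAT. These letters were chosen with class II promoters in view, so their presence there is a description. The sequences are from RefSeq, GRCh38.p14, each on the strand of its gene.
HLA-DRB1, chr6:32589884-32589933, minus strand: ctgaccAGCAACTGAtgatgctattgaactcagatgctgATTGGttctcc
HLA-DQB1, chr6:32666735-32666784, minus strand: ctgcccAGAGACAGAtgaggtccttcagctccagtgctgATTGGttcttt
HLA-DQA1, chr6:32637298-32637348, plus strand: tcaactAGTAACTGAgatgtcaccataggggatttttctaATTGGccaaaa
HLA-DMA, chr6:32953166-32953216, minus strand: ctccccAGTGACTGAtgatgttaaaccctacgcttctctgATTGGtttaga
HLA-DOA, chr6:33009648-33009698, minus strand: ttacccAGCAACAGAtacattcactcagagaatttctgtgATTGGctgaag

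In each of these the X core and the Y box had 24 or 25 bases between them. Over all 35116 promoter windows, each the 250 bases before a gene start read on both strands, 12.3% held the X core, 32.0% held CCAAT and 0.436% held the core followed by ATTGG within 40 bases. The ordered arrangement was found in 6 of the 13 class II genes with a window, and in 0 of the 8 complex genes with one. Of the 153 windows with the arrangement, 15 had the 24- or 25-base spacing, namely all 6 class II windows and 9 of the 147 others. That range is the one seen in the class II windows themselves, so it had to hold all 6 and tests nothing.

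The promoters of the complex genes held other letters. CCAAT stood in a window of 2 of the 8 genes, NFYC and RFX5, and TGACG, a core of the CREB1 site, in windows of 4, CREBBP, NFYC, RFX5 and RFXAP, against 21.2% of all windows; several of these genes have more than 1 window. The stretches around the paired CCAAT motifs, in capitals, are shown because NFYC itself encodes a CCAAT-binding subunit. In each case the pair lay at 1 of the starts listed for the gene. There were 36 bases between the copies at NFYC and 77 at RFX5.
NFYC, chr1:40709224-40709281, plus strand: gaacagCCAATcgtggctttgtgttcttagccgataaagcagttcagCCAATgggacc
RFX5, chr1:151347337-151347435, minus strand: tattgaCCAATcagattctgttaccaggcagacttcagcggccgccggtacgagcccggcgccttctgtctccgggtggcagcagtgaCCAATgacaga

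The targeted side of the fusion was checked first. PIERCE2, which general knowledge links to BX648577 and to the vector's target name, was read by 1 probe set, at intensities of 880 and 947 in the control arrays and 621 and 590 in the knockdown arrays. Both knockdown arrays lay below both controls, at 66.3% of the control mean. The fitted log2 fold change was -0.58 (SE 0.11, 95% interval -0.84 to -0.32), with an adjusted p of 0.273 in limma's common-prior fit and 0.000141 in the fit whose prior variance follows intensity, called here the intensity-trend fit. Where the probe set lies relative to the hairpin's site was not analysed here.

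The arrays were alike in level: mean intensity lay between 53.3 and 54.6, and the median between 8.12 and 9.28, lower on the knockdown arrays. All fold changes below are on the log2(intensity + 16) scale, knockdown relative to control, a scale that shrinks differences of dim probe sets. A probe set was tested where its mean on that scale reached the median of all probe sets, an intensity of about 8.26, which left 27307. All 7 Hodgkin markers were tested, with summed intensities of 2235 to 2296 in control and 2231 to 2289 in knockdown arrays. Most of these sums came from CD83, at means of 1068 in control and 1131 in knockdown arrays, and from FSCN1. CCL17 was dim, at means of 14.4 and 17.0. The 7 included CD30 (TNFRSF8), at 110, 115, 134 and 115. Of the 7, only FSCN1 was called, and only in the intensity-trend fit, at means of 631 in control and 504 in knockdown arrays. FUT4, whose enzyme makes CD15, lay the other way and missed the threshold, at 76.6 and 73.9 in control and 102 and 105 in knockdown arrays (log2 fold change 0.39, intensity-trend adjusted p = 0.0518 in limma). The 4 B cell markers with a probe set were also all tested. They summed to 72.5 to 80.1 in control and 72.2 to 79.2 in knockdown arrays. CD79A was the brightest of them, at means of 35.3 and 33.8, and MS4A1 the dimmest, at 8.26 and 8.51.

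Some markers of other cells moved with the groups. The 5 fibroblast markers summed to 140 and 154 in control and 107 and 108 in knockdown arrays, and 4 of the 5 had both knockdown arrays below both controls, a pattern shown by 22.8% of all probe sets tested. The largest test statistics among them were those of COL1A2, a collagen chain, at 56.4 and 53.3 against 37.3 and 32.9, and of LUM, which encodes lumican, at 14.5 and 16.2 against 8.78 and 9.81. The 4 T cell markers summed to 195 to 206 in control and 242 to 280 in knockdown arrays, nearly all of it CD3D, while CD3E, CD3G and CD2 were too dim to be tested. The 4 monocyte markers summed to 114 in both control arrays and to 110 and 112 in the knockdown arrays. Most of that signal was CSF1R, while CD163 and LYZ were too dim to be tested. Of 5 epithelial markers, 1 passed the intensity filter. No marker of these 4 lists passed the threshold in either fit, and their part in the results was not tested.

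In the transactivator and its partners, no probe set differed between the groups beyond the threshold. All 10 genes had at least 1 tested probe set, and 29 of the 36 probe sets were tested. Of these, 0 had an adjusted p below 0.05 in the common-prior fit, where 0.00732% of all probe sets were called, and 0 in the intensity-trend fit, where 2.16% were called (1.29% higher and 0.872% lower). Before adjustment, p lay below 0.05 for 3 of 29, or 10.3%, against a background of 13.3%, and in the intensity-trend fit 3 against a background of 16.1%. In bulk RNA, fewer cells making a transcript and less transcript per cell cannot be told apart.

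The 95% intervals reached a median of 0.26 on either side, on the log2 scale, and the median size of a difference was 0.12 over the 29 probe sets, against 0.13 over all probe sets tested. The wider of the replicate gaps had a median of 0.12, against 0.20 over all. The fitted values ran from -0.40, at KAT2B, to 0.34, at a probe set of NFYC, and their median was 0.09 against -0.0037 over all. Above 0 were 19 of 29, or 65.5%, against 49.2%, and after centring each array on its median 22 of 29, or 75.9%, against 61.4%. By the brightest probe set of each gene the split was 5 above and 5 below, with a median of 0.02.

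**Figure D1:**
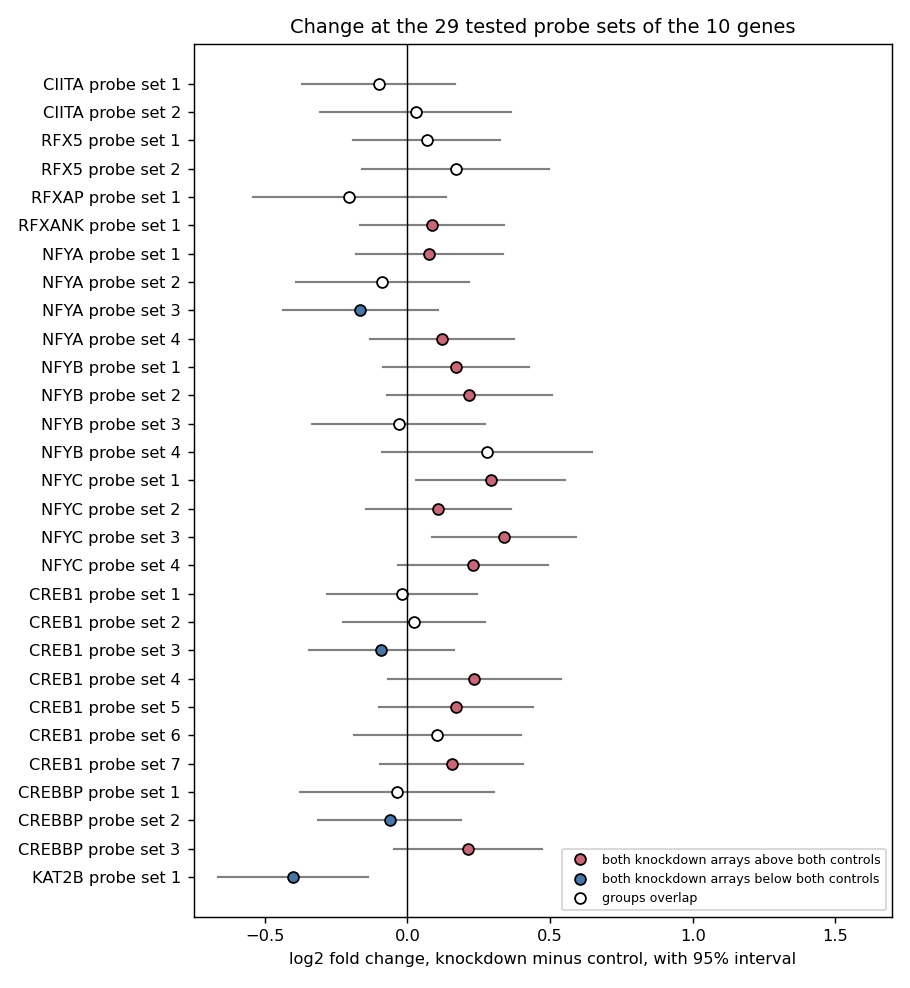
Fitted log2 fold change of each of the 29 tested probe sets, knockdown relative to control (x axis, log2 units), grouped by gene on the y axis. Points are limma estimates and bars their 95% intervals, with points coloured where both knockdown arrays lay above or below both controls and white where groups overlap; the values run from -0.40 (KAT2B) to 0.34 (NFYC), and no probe set passed an adjusted p of 0.05.

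In 13 of the 29 probe sets both knockdown arrays lay above both controls, 44.8% against a background of 23.3%, and in 4, or 13.8% against 22.8%, both lay below. These backgrounds are not matched for intensity, and 21 of the 29 were among the 13654 brightest probe sets. NF-Y supplied 8 of the 13. Without its 12 tested probe sets, 5 of 17 lay above, or 29.4%, and 3 lay below, or 17.6%, with a median of 0.03. Probe sets of a gene share their transcripts and are not independent.

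CIITA RNA was close to equal in both groups. Its brightest probe set (205101_at) read 59.6 and 65.1 in the control arrays and 60.7 and 53.6 in the knockdown arrays. The highest value was control 2 and the lowest knockdown 2, and the groups overlapped, since knockdown 1 lay above control 1. The means were 62.4 ± 3.87 and 57.1 ± 4.98 (SD, n = 2 each), or 91.6% of control, with a log2 fold change of -0.10 (SE 0.11, 95% interval -0.37 to 0.17, adjusted p = 0.735 by limma).

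The second CIITA probe set (210925_at) was dim, at 13.2 and 7.15 in control and 9.21 and 11.9 in knockdown arrays. The control arrays enclosed both knockdown arrays, and the fitted value was 0.03 (95% interval -0.31 to 0.36). The last (211884_s_at) read 3.15, 3.45, 6.43 and 1.96, below the level at which a probe set was tested. Where these probe sets lie relative to the break was not analysed here, so how far they read the fusion transcript, the unbroken gene or both is not given.

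**Figure D2:**
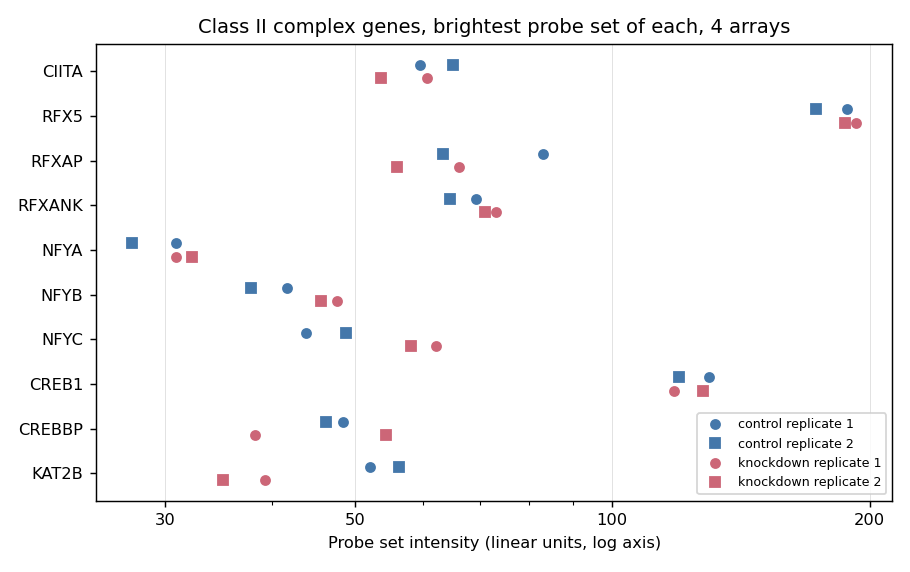
Intensity of the brightest probe set of each of the 10 genes (y axis) on each of the 4 arrays (x axis, linear intensity on a log axis; colour gives the group and shape the replicate). CIITA's arrays overlap between 53.6 and 65.1, and KAT2B's knockdown arrays, at 39.3 and 35.01, lie below its controls at 52.0 and 56.3.

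The named genes nearest to CIITA's pattern over the 4 arrays were found by the distance between log2 values centred on each probe set's mean, over 22637 named probe sets. They were PPP3CB-AS1, an antisense transcript (distance 0.00767), DUSP12, a dual-specificity phosphatase (0.00804), and ZFR, a zinc finger RNA-binding protein (0.00894). ZFR read 321 and 347 in control and 325 and 293 in knockdown arrays, the same order as CIITA. With 4 points such likeness is common: 961 probe sets lay within 0.1.

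The RFX complex recognises the X box, and loss of any of its subunits causes bare lymphocyte syndrome in people. RFX5, its DNA-binding subunit, read 188 and 173 in control and 193 and 187 in knockdown arrays, so that control 1 lay between the knockdown arrays. Its log2 fold change was 0.07 (95% interval -0.19 to 0.33, adjusted p = 0.824 by limma). The other RFX5 probe set (202964_s_at) read 49.3, 36.9, 46.3 and 54.2, again overlapping, with a value of 0.17 (95% interval -0.16 to 0.50).

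RFXANK, the ankyrin-repeat subunit that binds CIITA and RFX5, read 69.4 and 64.6 in control and 73.1 and 71.0 in knockdown arrays. Both knockdown arrays lay above both controls, and the value was 0.09 (95% interval -0.17 to 0.34, adjusted p = 0.763 by limma). RFXAP, the accessory subunit, read 83.1 and 63.3 in control and 66.2 and 56.0 in knockdown arrays. Control 1 stood above the rest and control 2 lay between the knockdown arrays. Its value was -0.20 (95% interval -0.54 to 0.13, adjusted p = 0.569 by limma), and it was -0.04 without control 1 and -0.36 without control 2.

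Over the 4 tested RFX probe sets the median was 0.08. Both knockdown arrays were above both controls in 1 and below in 0, against backgrounds of 23.3% and 22.8%. A second RFXAP probe set (208492_at) was too dim to test.

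NF-Y is a trimer that binds CCAAT, with NFYB and NFYC forming a histone-like pair and NFYA adding the sequence recognition. NFYC's probe sets pointed the same way: in all 4 of its tested probe sets both knockdown arrays lay above both controls, although none passed the threshold. That pattern was shown by 23.3% of all probe sets tested, and the 4 are not independent, since they share transcripts. The brightest (202215_s_at) read 43.8 and 48.8 in control and 62.1 and 58.2 in knockdown arrays, means of 46.3 ± 3.51 and 60.2 ± 2.77 (SD, n = 2 each). Its log2 fold change was 0.29 (SE 0.11, 95% interval 0.03 to 0.55), with an unadjusted p of 0.0336 and adjusted p-values of 0.339 (common-prior fit in limma) and 0.214 (intensity-trend fit).

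A second NFYC probe set (202216_x_at) read 28.8 and 30.6 in control and 40.6 and 43.0 in knockdown arrays. These are means of 29.7 ± 1.26 and 41.8 ± 1.71 (SD, n = 2 each), or 141% of control. The log2 fold change was 0.34 (SE 0.11, 95% interval 0.09 to 0.59, unadjusted p = 0.0152, adjusted p = 0.299 by limma). Probe sets of the x type, of which 211251_x_at is another, can pick up other transcripts, so this reading alone is uncertain.

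The remaining pair differed by less. The probe set 211797_s_at read 13.8, 14.5, 21.1 and 17.7, a value of 0.23 (95% interval -0.03 to 0.49), and 211251_x_at read 35.6, 34.5, 37.2 and 40.8, a value of 0.11 (95% interval -0.15 to 0.36). In the former the knockdown mean was 137% of control. Leaving NFYC out, 9 of the 25 other probe sets, or 36.0%, had both knockdown arrays above both controls, against 23.3% over all. The median of the 25 was 0.07.

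NFYB was mixed. Its probe set 218127_at read 41.7 and 37.8 in control and 47.6 and 45.6 in knockdown arrays, a value of 0.17 (95% interval -0.09 to 0.43, adjusted p = 0.532 by limma), and 218128_at read 38.2, 32.7, 47.7 and 39.99, a value of 0.22 (95% interval -0.07 to 0.51). In both, the knockdown arrays lay above the controls. Another (218129_s_at) was split by replicate number instead, at 32.9 and 26.5 in control and 31.9 and 25.6 in knockdown arrays, with a value of -0.03. The last (244704_at) was dim, at 6.92, 9.43, 9.35 and 17.9, and its value of 0.28 (95% interval -0.09 to 0.65) came with knockdown 2 well above the other arrays.

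NFYA showed no common direction. Its brightest probe set (204108_at) read 30.89 and 27.4 in control and 30.91 and 32.3 in knockdown arrays, a value of 0.08 with an adjusted p of 0.796 by limma. The lower knockdown array barely cleared the higher control there. The dimmer probe set 215720_s_at read 9.07, 9.84, 11.0 and 12.4, with the knockdown arrays higher (0.12), whereas 204109_s_at read 14.9, 11.4, 10.3 and 9.56, with the knockdown arrays lower (-0.17). The last tested one (228433_at) overlapped, at 10.3, 16, 11.6 and 11.0. The median over the 12 tested NF-Y probe sets was 0.15.

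**Figure D3:**
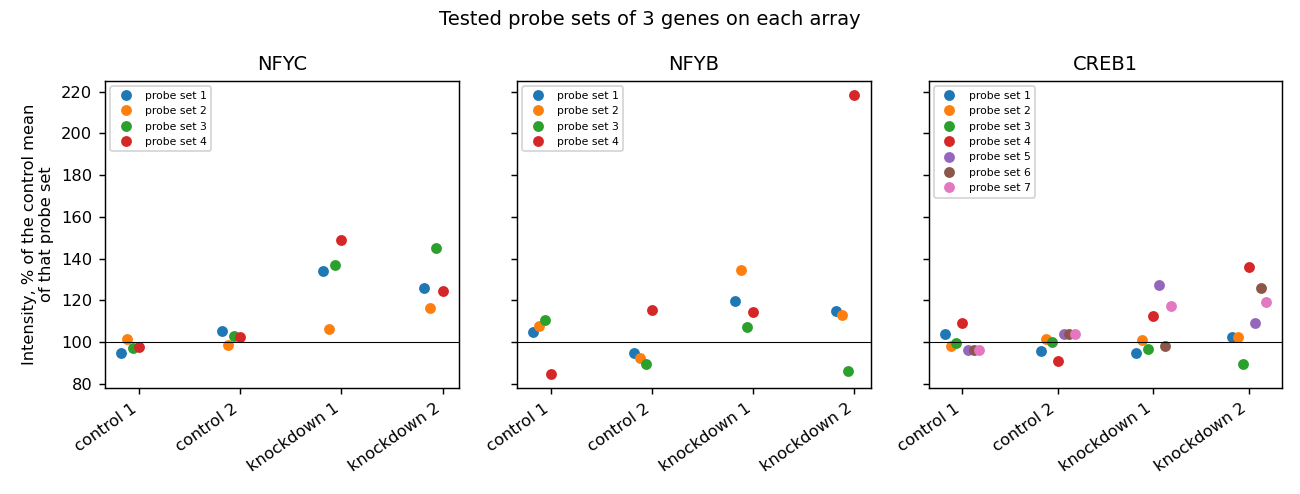
Intensity of every tested probe set of NFYC, NFYB and CREB1 on each of the 4 arrays (x axis), as a percentage of that probe set's control mean (y axis); each colour is 1 probe set. All 4 NFYC probe sets have both knockdown arrays above both controls, a pattern shown by 23.3% of all probe sets tested. Their knockdown mean is 130% of control at the brightest and 141% at 202216_x_at.

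CREB1, the cyclic-AMP-responsive factor of the X2 box, was read by 7 tested probe sets with values from -0.09 to 0.23 and adjusted p-values from 0.472 to 0.959 by limma. The brightest (204314_s_at) read 130 and 120 in control and 118 and 128 in knockdown arrays, where each knockdown array was close to a control. Its means were 125 ± 7.01 and 123 ± 6.88 (SD, n = 2 each), and its value was -0.02 (95% interval -0.28 to 0.24). The largest value, 0.23 (95% interval -0.07 to 0.54), belonged to 225565_at, at 48.4, 40.4, 49.9 and 60.4. Of the 7, both knockdown arrays were above both controls in 3 and below in 1, against backgrounds of 23.3% and 22.8%.

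CREBBP, also called CBP, is an acetyltransferase that CIITA recruits. Its brightest probe set (202160_at) read 48.4 and 46.3 in control but 38.2 and 54.3 in knockdown arrays. The knockdown arrays lay on either side of the controls, with means of 47.3 ± 1.51 and 46.3 ± 11.4 (SD, n = 2 each), so that the value of -0.04 (95% interval -0.38 to 0.30) rests on replicates that disagree. The dimmer probe sets read 10.3, 9.90, 8.38 and 9.64 (228177_at, a value of -0.06) and 6.72, 7.90, 12.03 and 10 (211808_s_at, a value of 0.21), the former lower and the latter higher on both knockdown arrays.

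KAT2B, also called PCAF, is an acetyltransferase that can modify CIITA itself, and it gave the lowest value of the 10 genes. Its only probe set (203845_at) read 52.0 and 56.3 in control and 39.3 and 35.01 in knockdown arrays. Both knockdown arrays lay below both controls, with means of 54.2 ± 3.03 and 37.1 ± 3.01 (SD, n = 2 each), or 68.6% of control. The log2 fold change was -0.40 (SE 0.11, 95% interval -0.66 to -0.14, unadjusted p = 0.00846). It did not pass the threshold, with an adjusted p of 0.285 in limma's common-prior fit and 0.0984 in the intensity-trend fit. Over the alternative settings and left-out arrays the adjusted p ranged from 0.0721 to 0.788 and the value stayed below 0.

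The 7 untested probe sets read between 1 and 10.4 over the 4 arrays and were not compared between groups. They belong to CIITA, RFXAP, NFYA (2), NFYC (2) and CREBBP. The dimmest tested probe set had a mean intensity of 9.16 and the brightest untested one 8.04, so the border between them is thin.

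The genes that the complex serves were read beside it, by the brightest probe set of each gene, ranked by its mean over all 4 arrays. Of 16 listed class II genes, 13 had a probe set of their own and 12 were tested. Their values lay above 0 in 11 and below in 1, with a median of 0.14, against 6136 above and 6786 below over all genes tested. Both knockdown arrays were above both controls in 8 of the 12, against 23.3% of all probe sets tested, a background not matched for intensity. In the common-prior fit 0 passed the threshold, with 4 at an unadjusted p below 0.05 against a background of 13.3%. In the intensity-trend fit, which called 2.55% of all genes, HLA-DRA, HLA-DRB1 and HLA-DQB1 were higher on the knockdown arrays.

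HLA-DRB1, the chain whose boxes are shown above, read 729 and 773 in control and 1033 and 1088 in knockdown arrays. Both knockdown arrays lay well above both controls, with means of 751 ± 31.4 and 1061 ± 39.0 (SD, n = 2 each). The value was 0.49, with adjusted p-values of 0.285 (common-prior fit in limma) and 0.000431 (intensity-trend fit). HLA-DRA, its partner chain, read 323 and 324 against 423 and 437, a value of 0.39 (0.285 and 0.00791 in the same fits). HLA-DQB1 read 266 and 286 against 354 and 402, a value of 0.43 (0.285 and 0.00953), but its other probe sets gave 0.01, 0.05 and 0.30. Since some class II genes are near copies of each other, a probe set can share signal between such genes.

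HLA-DQA1 read 428 and 383 in control and 469 and 539 in knockdown arrays, a value of 0.30 that missed the threshold (intensity-trend adjusted p = 0.0568 in limma). HLA-DRB4 had 0.17, HLA-DPA1 0.09 and HLA-DPB1 0.01. Among the genes for peptide loading, HLA-DMA had 0.14, HLA-DMB -0.06, HLA-DOA 0.13 and HLA-DOB 0.05, and CD74, the invariant chain, had 0.08. HLA-DQB2 was too dim to test. CIITA had the value of -0.10 given above at its brightest probe set on the same arrays. How far that probe set reads the fusion transcript, the unbroken gene or both is not given. A link between the class II values and CIITA was not tested.

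**Figure D4:**
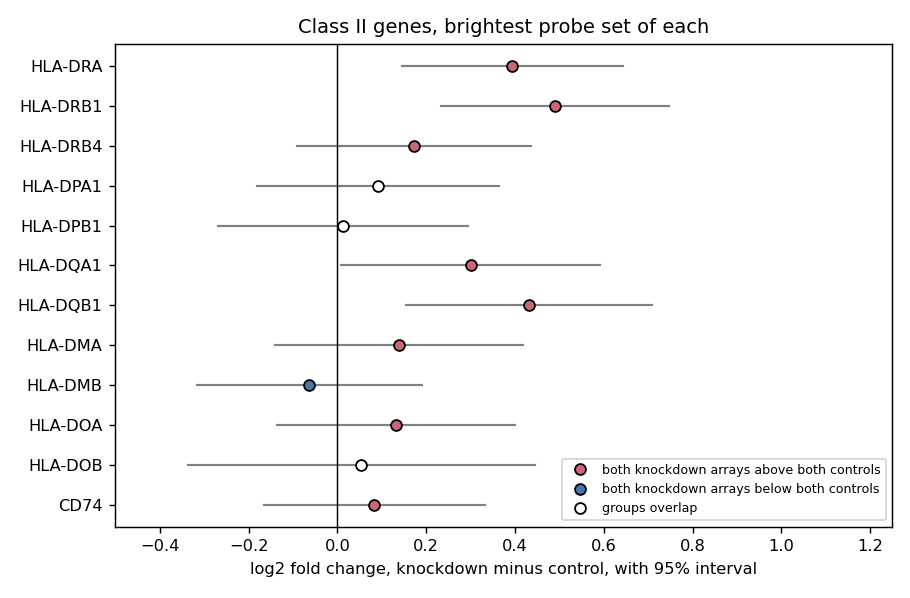
Fitted log2 fold change, knockdown relative to control (x axis, log2 units, with 95% intervals), of the 12 tested class II genes (y axis) by the brightest probe set of each; colours as in the plot of the complex genes. HLA-DRB1 has the largest value, 0.49, and HLA-DMB the lowest, -0.06.

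As a set, genes with the X core followed by ATTGG within 40 bases had values close to those of all genes. Most of these are loose matches: of the 147 windows outside the class II genes, 9 had the class II spacing. Genes with that spacing were not tested apart. The arrangement stood before 142 genes, and the 60 of them that could be tested had a median of -0.02, with 27 above 0, against a median of -0.01 over 12922 genes. Outside the class II genes there were 55, whose median was also -0.02, with 22 above 0 and 33 below. Of the 55, 0 were called in either fit, where the intensity-trend fit called 2.55% of all genes. Its 2 calls among the 60 were both class II genes.

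Other genes linked to the complex were taken from lists, and EP300 and KAT2A stand in both the cofactor and the paralog list. The cofactor list pools proteins of different roles, among them the deacetylases HDAC1 and HDAC2, so its directions have no common reading. Of 24 further cofactors at class II promoters 20 were tested, with 6 values above 0, 14 below and a median of -0.08. Over all 12922 genes tested, 6136 lay above 0 and 6786 below. None passed in the common-prior fit. In the intensity-trend fit, which called 2.55% of all genes, TAF1 alone of the 20 was called, and it was lower. TAF1, the largest subunit of TFIID, read 114 and 98.6 in control and 77.5 and 71.9 in knockdown arrays, a value of -0.43 with adjusted p-values of 0.285 (common-prior fit in limma) and 0.0422 (intensity-trend fit). ZXDA, a zinc finger partner of CIITA, had the next largest test statistic, at 21.7 and 21.6 against 16.4 and 14.3, a value of -0.26 (adjusted p = 0.365 by limma).

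Genes that control CIITA transcription were tested for 12 of 15 listed, with 8 values above 0, 4 below, a median of 0.06 and 0 calls in either fit. The largest test statistics belonged to JAK1, a kinase of the interferon receptors, and MYC. JAK1 read 360 and 411 in control and 327 and 321 in knockdown arrays, a value of -0.24 (adjusted p = 0.421 by limma). MYC read 267, 268, 255 and 225, a value of -0.15. Of 13 paralogs of the 10 genes 9 were tested, with 3 values above 0, 6 below, a median of -0.10 and 0 calls in either fit. They were led by RFX7, at 94.8 and 97.2 against 82.1 and 72.0 (-0.27, adjusted p = 0.372 by limma), and by NLRC5, the class I counterpart of CIITA, at 34.6, 22.3, 38.8 and 34.1 (0.25, adjusted p = 0.509).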

How the data were processed

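The authors deposited an intensity on a linear scale for each probe set of the 4 arrays. The algorithm and scaling behind it are not given in the sources used here. Values at a floor of 1 numbered 971 to 1082 per array, counting a few below it. The number of arrays limits the precision, and with 2 against 2 an exact permutation test cannot go below p = 0.333.

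Gene names came from the array's annotation: 41091 probe sets had 1 gene, 1801 several and 11721 none. All 36 probe sets described had the same symbol in RefSeq. Intensities were taken as log2(intensity + 16). Probe sets with a mean at or above the median of all (4.60) were tested in limma 3.58.1 (R 4.3.3; lmFit, eBayes, 1 prior variance), with Benjamini-Hochberg adjustment over the 27307 tested and a threshold of 0.05. The intensity-trend fit, pseudocounts, filters, normalizations, probe set summaries, thresholds, the replicate number and left-out arrays were alternatives.

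The 10 genes and all lists were chosen with earlier results of these data known. Named were all probe sets of the 10 genes, every class II gene, the 2 genes of each other pathway list with the largest test statistic and any past the threshold, PIERCE2, and the 3 nearest to CIITA. The cell type markers named stand outside this rule and were chosen after their values were seen. Genes of the lists that were not analysed here include HLA-DRB3, HLA-DRB5, HLA-DQA2, TAF9, POU2F1, PSMC5, RFX8 and ATF1.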

Additional observations from a re-analysis of the deposited data

How the results depend on the processing

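The 10 genes had 0 probe sets past the threshold under every alternative run. Over all probe sets 2 were called, both lower. The count was 591 with the intensity-trend fit (353 higher, 238 lower), 694 with a pseudocount of 64 (432 higher, 262 lower), 62 among the 13654 brightest probe sets, 1 by the mean over each gene, and 0 with a pseudocount of 1, no filter or a threshold of 0.01. It ranged from 0 to 3 with an array left out, being 0 without control 2 or without knockdown 2, and was 2 with a replicate block; the replicate numbers were not found to pair the arrays (correlation -0.01). Class II genes called were 3 with the intensity-trend fit or a pseudocount of 64, other cofactors 1, and each 0 otherwise. The median of the 29 probe sets, 0.09, was 0.11 with a pseudocount of 1, 0.053 with 64, 0.14 after median centring, 0.024 by brightest probe set, 0.039 by gene mean, and 0.046 to 0.12 with an array left out. At its brightest probe set CIITA stayed below 0 in every setting, from -0.17 to -0.01. Some values near 0 turned sign. Median centring gave 0.027 for NFYB 218129_s_at, 0.038 for CREB1 204314_s_at and 0.020 for CREBBP 202160_at, and quantile normalization -0.0032 for CREB1 204313_s_at. With an array left out, the ranges were -0.14 to 0.20 for CIITA 210925_at, -0.13 to 0.071 for NFYB 218129_s_at, -0.070 to 0.032 for CREB1 204314_s_at, -0.018 to 0.23 for CREB1 237289_at, -0.22 to 0.15 for CREBBP 202160_at, -0.23 to 0.053 for NFYA 228433_at, -0.19 to 0.30 for HLA-DOB and -0.069 to 0.093 for HLA-DPB1. The cause of these changes was not tested. Dim probe sets limit what can be read: 7 of the 36 were not tested.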
